A study of Mus musculus with 22 samples.

Results

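Vehicle-treated TH2 cells of the mouse are described here across all genes, from the 11 of 22 RNA sequencing libraries whose treatment label reads control. TH2 cells are CD4+ T helper cells driven towards the type 2 cytokine programme, here by polarization in vitro. The cells were wild type and came from Balb/c mice. Per the labels' protocols, male and female mice were bought at 6 to 8 weeks of age and bred for generations on diets with 400, 1000 or 4000 IU of vitamin D3 per kg. The vehicle cultures received 2% ethanol, the solvent of the hormone given to the other 11 cultures over the last 24 hours, and the cells were harvested for RNA on day 5 of polarization. The labels give neither the mouse, the sex, the diet nor the culture of a single library, nor whether animals were pooled. The replicate numbers 1 to 11 used here follow the order of deposit and only name the libraries. p-values therefore measure the spread between these libraries, which may be technical in part. No comparison with the hormone-treated libraries was made.

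In textbook accounts, TH2 cells arise when signals through the T cell receptor and the interleukin 4 receptor activate STAT6, which raises the transcription factor GATA3. GATA3 and its partners open a cluster of cytokine genes that holds Il4, Il5 and Il13. Their products drive antibody class switching, eosinophil recruitment and mucus production in parasite defence and allergy. Cells of this kind divide quickly after activation, and their full cytokine output needs a fresh receptor signal that brings NFAT and AP-1 to these genes.

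The total count per library ran from 3618784 (replicate 5) to 20258430 (replicate 10), with a median of 7320919. Levels are given in counts per 1000000 (CPM) after TMM scaling over these 11 libraries, as mean ± SD (n = 11). Genes are compared with each other in CPM per kilobase of annotated exons. A gene was called detected at a mean of at least 1 CPM. A gene with no count in the 11 libraries, which hold 94329405 counts together, could still be present at up to 0.0319 CPM, a limit of 3 counts that covers counting error only.

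All 5 genes that mark these cells were detected in 11 of 11 libraries. Gata3, the lineage factor, stood at 88.4 ± 10.2 CPM (ENSMUSG00000015619, chr2:9857078-9890034 on GRCm38). Il4 stood at 88.7 ± 8.54 CPM (ENSMUSG00000000869, chr11:53602982-53618669), Il13 at 340.1 ± 104 CPM (ENSMUSG00000020383, chr11:53631324-53634702) and Il5 at 45.5 ± 22.5 CPM (ENSMUSG00000036117, chr11:53720794-53725106). Ctla4, an inhibitory receptor of activated T cells, stood at 622 ± 114 CPM (ENSMUSG00000026011, chr1:60887000-60915832). The T cell genes Trac, Cd4 and Cd3e stood at 308 ± 23.98, 771 ± 42.7 and 33.2 ± 2.97 CPM. Of 34 cell cycle genes 32 were detected, or 94.1%, against 50.6% of protein-coding genes. The proliferation marker Mki67 stood at 880.2 ± 85.8 CPM, so the cells are not called resting here. In bulk RNA, fewer cells that make a transcript and less of it per cell cannot be told apart.

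Libraries resembled each other in sets. Replicates 3 and 4, 5 and 6, 7 and 8, and 10 and 11 were each other's best correlated partners. Over 55 pairs of libraries the correlation of log2 CPM across genes ran from 0.972 to 0.995. A chi-square test between their counts ran from 2.55 to 19.95 for each degree of freedom, and replicates 1 and 2 gave 2.97. Each pair thus differed by more than sampling noise, and the libraries were kept apart. On the first principal component of the 500 most variable genes (53.3% of their variance), replicates 1 to 4 lay between 7.82 and 11.6, replicates 7, 8, 10 and 11 between -3.64 and -1.49, and replicates 5, 6 and 9 between -11.6 and -7.57. Where a described gene of at least 1 CPM moved in mean level by over 1.5 times without replicates 1 to 4, its mean without them is given below.

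The promoters of the 3 clustered type 2 cytokine genes are shown beside those of Ifng and Il17a, the signature cytokine genes of TH1 and TH17 cells, because the levels of these 5 genes define the state of the cells. Each sequence is the 150 bases upstream of the RefSeq start (RefSeq, GRCm38.p6), 5′ to 3′ on the coding strand. Capitals mark AGATAA or TGATAA on either strand, the letters of a GATA motif, and TATAAA on the coding strand from 40 to 20 bases upstream of the start.
Il13, chr11:53634703-53634852, minus strand: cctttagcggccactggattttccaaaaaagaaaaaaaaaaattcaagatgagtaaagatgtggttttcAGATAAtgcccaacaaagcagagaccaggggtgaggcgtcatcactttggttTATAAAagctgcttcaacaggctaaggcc
Il4, chr11:53618666-53618815, minus strand: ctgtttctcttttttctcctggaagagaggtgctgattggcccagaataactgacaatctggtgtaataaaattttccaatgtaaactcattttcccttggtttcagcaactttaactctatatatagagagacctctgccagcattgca
Il5, chr11:53720644-53720793, plus strand: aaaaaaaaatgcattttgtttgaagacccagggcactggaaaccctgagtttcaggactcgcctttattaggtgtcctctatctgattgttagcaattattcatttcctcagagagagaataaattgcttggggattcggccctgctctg
Ifng, chr10:118440896-118441045, plus strand: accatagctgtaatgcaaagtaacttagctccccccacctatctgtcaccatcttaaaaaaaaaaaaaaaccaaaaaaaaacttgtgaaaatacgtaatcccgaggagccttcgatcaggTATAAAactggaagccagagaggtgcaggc
Il17a, chr1:20730755-20730904, plus strand: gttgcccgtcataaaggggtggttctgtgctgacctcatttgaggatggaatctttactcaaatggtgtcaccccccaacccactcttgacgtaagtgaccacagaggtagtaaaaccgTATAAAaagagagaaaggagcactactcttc
Of these 5 windows, the one of Il13 held both motifs, with 1 GATA match. Those of Ifng and Il17a held TATAAA, and those of Il4 and Il5 held neither set of letters. Other forms of the GATA motif were not searched. One of them, AGATAG, lies on the opposite strand of the Il5 and Ifng windows, so an unmarked window is not one without a GATA motif. Il13 and Il4 lie on the same strand of chromosome 11, and Il5 lies on the other. Il13 had 29876 counts over the 11 libraries, Il4 had 8532 and Il5 had 4063, against 8 for Ifng and 30 for Il17a. A match is a description of letters, not of a bound site.

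Across 20079 promoters of 16454 protein-coding genes that matched by symbol, 2.43% held TATAAA in that place and 7.96% held AGATAA or TGATAA. Only these forms are counted as a GATA motif here. These features varied with the level of the gene. Among 4806 promoters of genes with no count the median number of CpG dinucleotides in 150 bases was 1, and TATAAA was in 5.62% and a GATA motif in 16.3%. Among 6663 promoters of genes at 10 to 100 CPM the median was 11 CpG, and the shares were 0.630% and 4.10%. Among 84 promoters of genes at 1000 CPM or more the median was 12 CpG, while TATAAA was in 4.76% and a GATA motif in 7.14%. GGAAA, the NFAT core, was in 38.7% of the promoters of genes with no count in 36.1% of those at 10 to 100 CPM and in 46.4% of the 84 at 1000 CPM or more, on either strand. These are descriptions of the sequences and were not tested.

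Of 21811 protein-coding genes, 11047 were detected, which is 50.6%, and 10361 reached 1 CPM in each library. There was no count for 6217, or 28.5%. The 50.6% detected is the share to set beside each count of detected list members. At the upper end 1985 protein-coding genes reached 100 CPM and 93 reached 1000 CPM. Protein-coding genes took 89.8 ± 0.481% of the counts, ribosomal protein genes 9.99 ± 0.337% and mitochondrial genes 2.32 ± 0.444%. The 10 most abundant genes of a library took 11.2 ± 0.426% of its counts and the 100 most abundant took 26.9 ± 0.758%.

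The libraries were made from total RNA, and the highest genes in CPM included noncoding ones. Rn7sk, the 7SK RNA that restrains transcription elongation, was highest at 17615 ± 1208 CPM. Gm26917, annotated as a long noncoding RNA, was second at 16075 ± 1948 CPM. The RNA components of RNase P and RNase MRP, Rpph1 and Rmrp, stood at 11897 ± 1375 and 6815 ± 579 CPM. The mitochondrial ribosomal RNA mt-Rnr2 stood at 13205 ± 3197 CPM, from 9214 to 19305. The nuclear long noncoding RNA Malat1 stood at 8408 ± 677 CPM.

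Per kilobase, 15 of the 20 highest protein-coding genes encode ribosomal proteins or elongation factors. Eef1a1, the elongation factor that brings aminoacyl-tRNA to the ribosome, was first at 6379.9 ± 428 CPM per kilobase. The cytoskeletal genes Tmsb4x and Actb, the mitochondrial gene mt-Co1 and the MHC class I light chain gene B2m were also among the 20. Akr1c18, a progesterone-inactivating aldo-keto reductase, held rank 14 at 1563 ± 262 CPM per kilobase. In the libraries Akr1c18 ran from 1428 to 2493 CPM with a median of 1893, highest in replicates 6 and 5. Tgm2, the tissue transglutaminase, was the last of the 20 highest genes in CPM, at 2658 ± 597 CPM. It ran from 1767 to 3389 CPM, with replicates 5, 6 and 9 lowest.

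**Figure D1:**
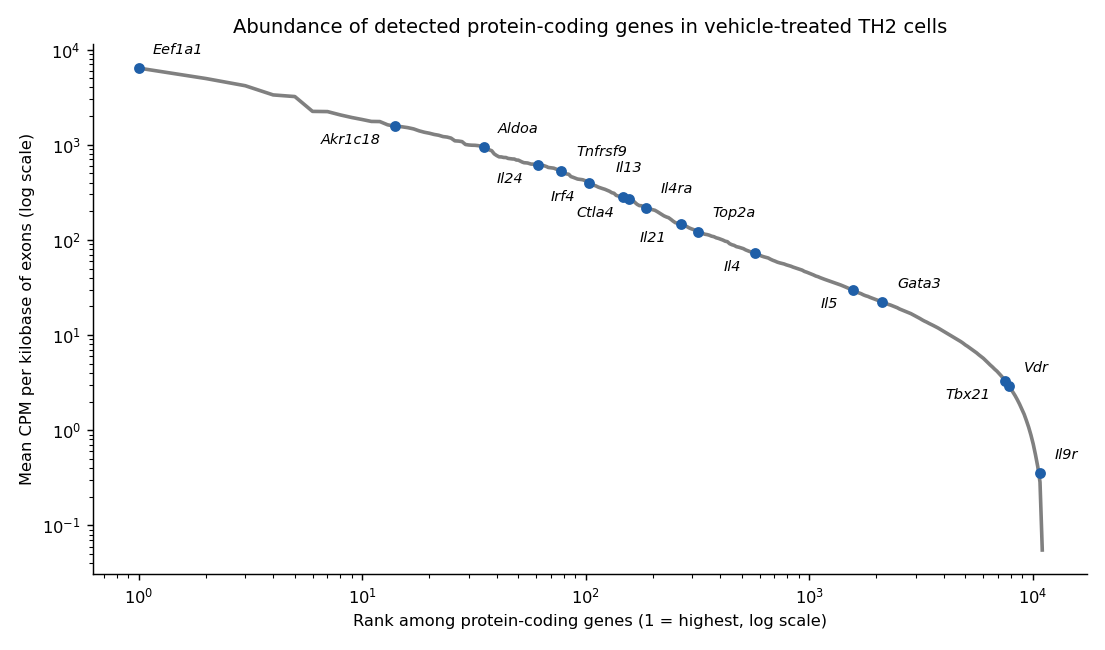
Mean CPM per kilobase of exons (log axis) against rank (log axis) for the 11047 detected protein-coding genes, with the mean of 11 libraries for named genes as points. Il24 lies at rank 61, Il13 at 147, Il4 at 573, Il5 at 1569 and Gata3 at 2130.

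The cytokine genes of the type 2 list differed from each other over a wide range. Of its 11 members 10 were detected, against 50.6% of protein-coding genes, and Il31 had 15 counts in all. Il24, a member of the interleukin 10 family, was highest. Its level ran from 585 to 1199 CPM with a median of 801, and replicates 1 and 2 were highest. Per kilobase it stood at 615 ± 160.2 CPM, above Il13 in 11 of 11 libraries, although the ranges of the 2 genes over libraries overlapped.

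Il13, the cytokine of mucus and airway responses, ran from 194 to 526 CPM with a median of 315. Replicates 1 and 2 were highest at 501 and 526 CPM, and replicates 11 and 10 lowest. Il4, which drives class switching to IgE, ran from 75.7 to 100.4 CPM with a median of 88.6, and there replicates 1 and 2 were lowest. Per kilobase Il13 exceeded Il4 by 1.91 ± 0.53 on the log2 scale, in 11 of 11 libraries (two-sided sign-flip permutation test, adjusted p = 0.00106 over 50 pairs). That is the smallest adjusted p found for a pair. Any pair ordered alike in 11 of 11 libraries gets this value, whatever the size of its ratio. The test takes the libraries as independent, while they resembled each other in sets, so this and the later p-values may be too small. The pairs were chosen with earlier results of these data known.

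Il5, the eosinophil growth factor, ran from 21.5 to 90.7 CPM with a median of 36.9. Replicates 2, 1 and 4 were highest and replicates 5 and 6 lowest, at 21.5 and 22.6 CPM. Il4 exceeded Il5 per kilobase by 1.43 ± 0.73 on the log2 scale, in 11 of 11 libraries, but by no more than 0.08 in replicate 2 (permutation test, adjusted p = 0.00106). Without replicates 1 to 4 the mean was 31.5 CPM for Il5 and 281 CPM for Il13, and that of Il4 was 89.96 CPM.

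Il10, an anti-inflammatory cytokine, ran from 137 to 296 CPM with a median of 192, highest in replicates 4 and 3. Per kilobase of merged exons it exceeded Il4 by 1.01 ± 0.39 on the log2 scale (permutation test, adjusted p = 0.00106). Divided by the longest transcript of each gene, that difference was -0.014 with an adjusted p of 0.897 in the same permutation test, so the order of Il10 and Il4 depends on the length used. Il9, a mast cell growth factor, ran from 15.3 to 36.6 CPM with a median of 28.5 and was lowest in replicates 11 and 10.

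The other members of the list were low. The colony-stimulating factor gene Csf2 stood at 6.28 ± 2.97 CPM and Areg, which encodes an epithelial growth factor, at 3.19 ± 1.05 CPM. Il3, another hematopoietic growth factor, ran from 1.805 to 13.8 CPM, highest in replicates 2 and 1, and its mean of 4.34 CPM was 2.86 CPM without these 2 libraries and 2.68 CPM without replicates 1 to 4.

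**Figure D2:**
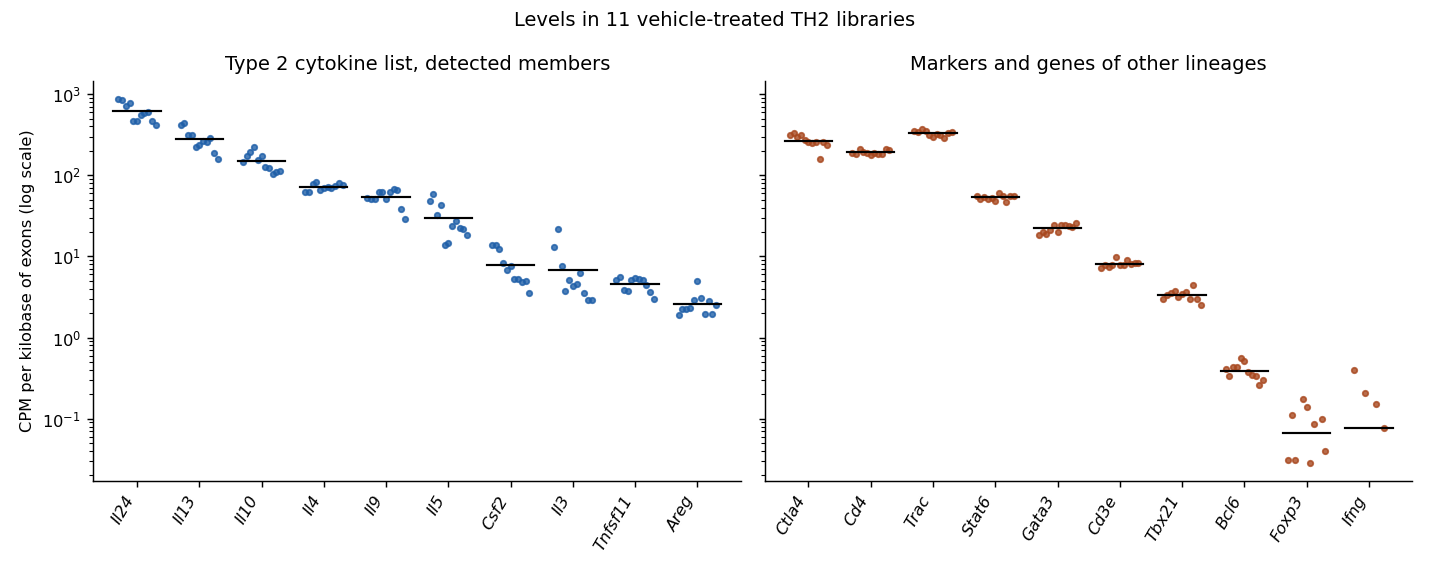
CPM per kilobase of exons (log axis) in each of 11 vehicle libraries (points, replicates 1 to 11 from left to right) with the mean as a bar; libraries with no count have no point. Left, the 10 detected type 2 cytokine genes, from Il24 at 615 to Areg at 2.62; right, markers and genes of other lineages, from Trac at 329 down to Foxp3 at 0.0677.

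Among 36 cytokine genes of other lineages and sources, 21 were detected, or 58.3%, near the 50.6% of protein-coding genes. Il21, better known from follicular helper T cells, stood at 777 ± 102 CPM, from 619 to 991. The pleiotropic cytokine genes Mif and Lif stood at 554 ± 55.4 and 298 ± 27.2 CPM. Tnfsf8, the CD30 ligand, stood at 551 ± 36.3 CPM while Tnfrsf8, its receptor, stood at 759 ± 74.8 CPM. Spp1, or osteopontin, ran from 145 to 419 CPM, lowest in replicates 3 and 4 and highest in replicates 8 and 7. The tumour necrosis factor family genes Lta, Ltb and Tnf stood at 69.7 ± 11.8, 74.6 ± 14.9 and 53.9 ± 11.6 CPM.

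Ifng, Il17a and Il17f, the signature cytokine genes of TH1 and TH17 cells, were at or near 0. Ifng had 8 counts, in 4 of 11 libraries. Il17a had 30 counts and Il17f 43. Without replicates 1 to 4 their mean levels were 0.0299 and 0.163 CPM, from 0.4198 and 0.575 CPM. Il22, made by TH17 and TH22 cells, was detected at 8.66 ± 7.51 CPM. It reached 22.03 and 22.4 CPM in replicates 1 and 2, and without replicates 1 to 4 its mean was 3.97 CPM. Il2, the T cell growth factor, stood at 5.08 ± 1.71 CPM. Il1a, Il7, Il12b and Il25 had no count.

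Chemokine genes had fewer detected members than the cytokine lists, with 4 of 15 detected (26.7%, against 50.6% of protein-coding genes). Their summed level lay between 10.2 and 21.7 CPM. The inflammatory chemokine genes Ccl5 and Ccl4 stood at 5.68 ± 2.21 and 4.77 ± 1.56 CPM, and Ccl22, a ligand of CCR4, at 2.803 ± 1.86 CPM. Ccl2, Ccl20, Cxcl2, Cxcl9 and Cxcl11 had no count. Of 7 genes of cytotoxic effectors, 4 were detected, or 57.1%, near the 50.6% of protein-coding genes. Gzmk had no count. The serine protease gene Gzmb stood at 14.2 ± 3.14 CPM.

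Of 52 transcription factor genes of T cell lineages and effector states, 48 were detected, or 92.3%, against 50.6% of protein-coding genes. Per kilobase the highest were Junb, an AP-1 subunit, at 428 ± 33.8 CPM, and Irf4, an activation-induced factor needed for type 2 differentiation, at 397 ± 28.2 CPM. Junb exceeded Irf4 in 8 of 11 libraries. Batf, their partner at composite sites, followed at 265 ± 23.6 CPM per kilobase. Irf4 exceeded Irf8 by 6.69 ± 0.50 on the log2 scale per kilobase (permutation test, adjusted p = 0.00106).

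Gata3 was not among the 8 highest factors. Its level ran from 73.9 to 102 CPM with a median of 92.6, lowest in replicates 1 and 3 and highest in replicate 11. Per kilobase it stood at 22.2 ± 2.56 CPM, 6.65-fold above the TH1 factor Tbx21, 23.2-fold above the TH17 and ILC2 factor Rora and 56.4-fold above the follicular helper factor Bcl6. Each of these orders held in 11 of 11 libraries (permutation test, adjusted p = 0.00106 for each). Tbx21 was still detected, at 8.29 ± 1.26 CPM. Foxp3, the factor of regulatory T cells, had 28 counts and Eomes 14. Pparg, a nuclear receptor with a known role in TH2 cells, stood at 99.9 ± 7.79 CPM, and its mean per kilobase lay above that of Gata3.

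Among the STAT genes, which carry cytokine signals to the nucleus, Stat6 exceeded Stat4 per kilobase by 2.66 ± 0.30 on the log2 scale (permutation test, adjusted p = 0.00106). STAT6 acts downstream of interleukin 4 and STAT4 downstream of interleukin 12. Stat5b exceeded Stat5a by 1.37-fold per kilobase of merged exons, but with the longest transcript the log2 ratio of Stat5a to Stat5b was 0.31, in the other direction. Of the Ikaros family, Ikzf1 exceeded Ikzf3 by 2.67 ± 0.57 on the log2 scale (permutation test, adjusted p = 0.00106).

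Of 39 cytokine receptor genes, 32 were detected, or 82.1%, against 50.6% of protein-coding genes. Il4ra, the chain that binds interleukin 4 and serves interleukin 13 too, was highest at 1304 ± 151 CPM. Its level ran from 1085 to 1589 CPM with a median of 1302. The interleukin 2 receptor chains Il2ra and Il2rb stood at 849 ± 52.7 and 778 ± 66.5 CPM. Their shared partner Il2rg, the common gamma chain, stood at 179 ± 9.44 CPM, and per kilobase Il2rb exceeded it by 2.41-fold in 11 of 11 libraries (permutation test, adjusted p = 0.00106). Il21r, the receptor of the abundant Il21, stood at 482 ± 44.8 CPM.

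Receptor chains for other cytokines of type 2 responses were unequal. Crlf2, the chain specific to the receptor of thymic stromal lymphopoietin, stood at 40.5 ± 5.13 CPM and its partner Il7r at 86.6 ± 18.7 CPM. Il13ra1, the partner of Il4ra outside the T cell lineage, stood at 2.19 ± 1.14 CPM, and Il13ra2, a decoy receptor, had no count. Il1rl1, the interleukin 33 receptor often used to mark TH2 cells, had 72 counts, and Il17rb, the interleukin 25 receptor, had 26. Il18r1, which TH1 cells use, stood at 4.798 ± 1.67 CPM, above Il1rl1 in 11 of 11 libraries. Ifngr1 and Ifngr2, the interferon gamma receptor chains, stood at 19.03 ± 2.14 and 18.4 ± 1.45 CPM per kilobase and were the only pair of the 50 that did not pass (log2 ratio 0.04 ± 0.14, permutation test, adjusted p = 0.313). With the longest transcript their log2 ratio was 0.45 and passed.

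Il12rb2, the inducible chain of the interleukin 12 receptor, varied strongly between libraries. Replicates 1 to 4 ran from 72.1 to 95.3 CPM and the other 7 from 22.6 to 37.7 CPM. This split of the libraries was chosen after the data were seen and was not tested. The mean of Il12rb2 was 49.1 CPM, and 30.6 CPM without replicates 1 to 4. Il12rb1, the constant chain, ran from 181 to 228 CPM.

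Of 25 receptors for chemokines and lipid mediators, 17 were detected, or 68%, against 50.6% of protein-coding genes. Ccr4 and Ccr8, chemokine receptors linked to TH2 cells, stood at 156 ± 27.3 and 41.4 ± 12.1 CPM, and Ccr4 was higher per kilobase by 1.46-fold (permutation test, adjusted p = 0.00106). Ccr7, which guides cells to lymph nodes, was highest of the list per kilobase and exceeded Cxcr4 by 2.58-fold. S1pr1, which lets cells leave lymph nodes, ran from 59.1 to 82.5 CPM in replicates 1 to 4 and from 18.1 to 26.4 CPM in the other 7. The prostaglandin E2 receptor genes Ptger2 and Ptger4 stood at 74.8 ± 8.29 and 78.5 ± 5.64 CPM. Ptgdr2, the prostaglandin D2 receptor known as CRTH2, had 3 counts in 1 library, and Ptgdr and Ccr10 had none.

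The genes of the T cell receptor complex and its signalling varied little between libraries. All 26 were detected, 20 of them at 100 CPM or more, and their median spread beyond counting error was 7.57%. The constant region gene Trbc2 stood at 356 ± 26.6 CPM and the kinase genes Lck and Zap70 at 645 ± 29.1 and 293 ± 28.1 CPM. Trbc1 and Trbc2 are near-identical copies, so their split is uncertain. All 22 Trbv segments had counts, and no segment dominated. The highest, Trbv31, took 14.97 ± 0.745% of the Trbv counts, followed by Trbv1 with 13.03 ± 1.12% and Trbv13-1 with 12.96 ± 1.202%. These shares rest on 1131 to 5890 Trbv counts a library. Of 108 Trav segments 66 had counts, and the highest, Trav14d-3-dv8, took 5.88 ± 1.201%.

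Of 44 costimulatory, inhibitory and adhesion receptor genes, 41 were detected. Tnfrsf9, the costimulatory receptor 4-1BB, was highest at 1451 ± 395 CPM. It ran from 944 to 1978 CPM with a median of 1348. Replicates 1 to 4 were highest, and replicates 5, 6 and 9 lowest. Its relatives Tnfrsf18 (GITR) and Tnfrsf4 (OX40) stood at 436 ± 51.7 and 369 ± 24.7 CPM per kilobase. Tnfrsf18 exceeded Tnfrsf4 by a mere 1.17-fold, yet in 11 of 11 libraries (permutation test, adjusted p = 0.00106).

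Of the CD28 family, Ctla4 was highest per kilobase. Its level ran from 365 to 780.2 CPM with a median of 594, and replicate 9 stood lowest by a wide margin. Ctla4 exceeded Cd28 by 1.96-fold and Icos by 2.44-fold per kilobase, each in 11 of 11 libraries (permutation test, adjusted p = 0.00106 for both). Icos ran from 225 to 665 CPM, highest in replicates 4 and 3. Pdcd1, which encodes PD-1, stood at 76.9 ± 10.4 CPM.

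Integrin chains were unequal. Itgal, the alpha chain of LFA-1, stood at 155 ± 16.3 CPM, while Itga4 stood at 6.76 ± 3.48 CPM, with 0.689 to 11.3 CPM over libraries. Itgb7 exceeded Itgb1 by 1.94-fold per kilobase (permutation test, adjusted p = 0.00106). Klrg1 had 1 count in all.

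**Figure D3:**
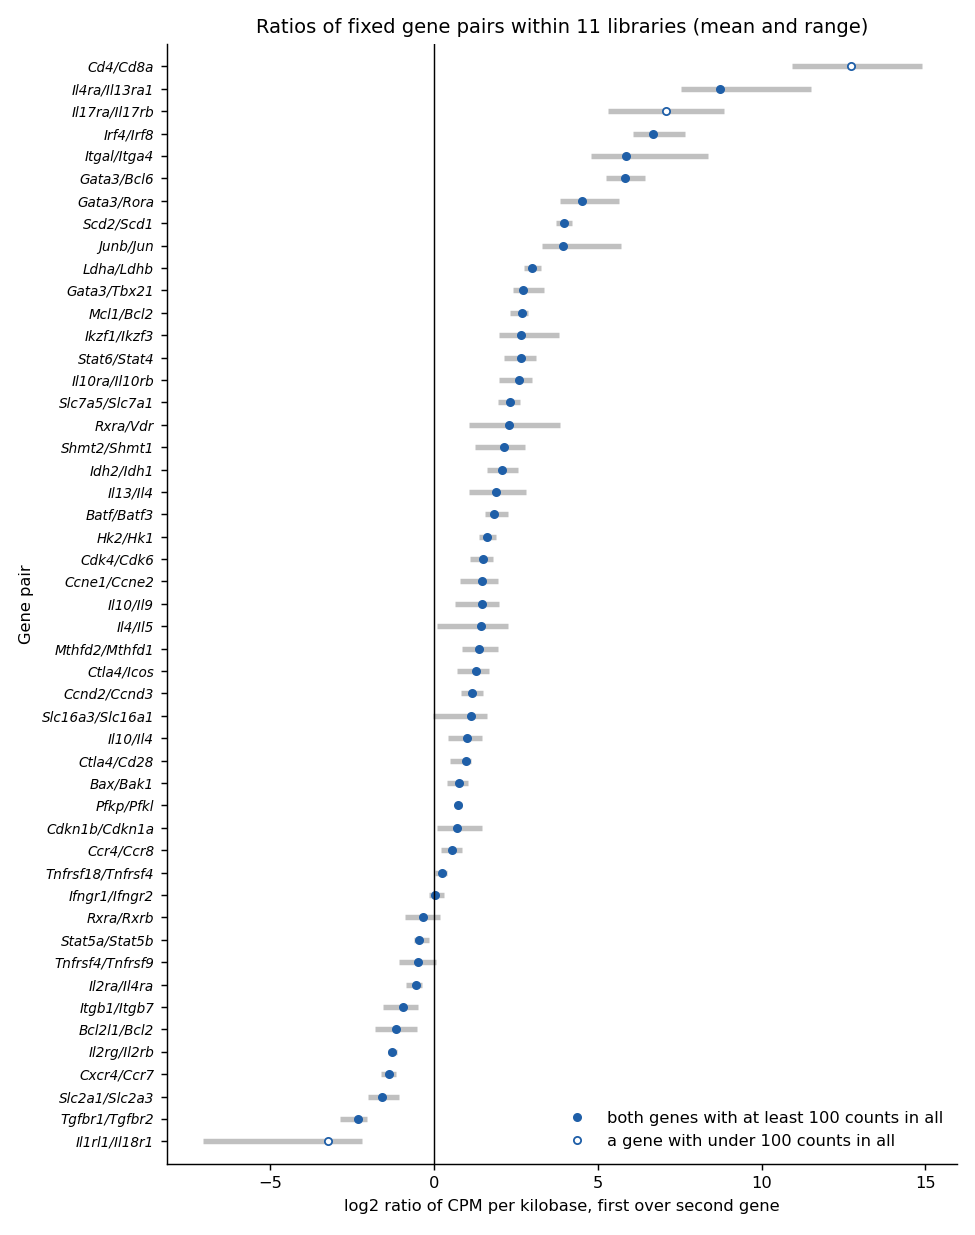
Log2 ratio of CPM per kilobase of the first over the second gene of 49 of the 50 pairs within each library: point, mean of 11 libraries; grey bar, lowest to highest library; open points, pairs with a gene of under 100 counts in all, whose ratio rests on the pseudocount of 0.5. In 36 pairs the first gene was higher in 11 of 11 libraries, and in 9 pairs the second.

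Glycolysis genes were abundant. Of 24 genes 23 were detected, and their summed level ran from 14519 to 19944 CPM. The enzyme genes Aldoa, Pgk1, Tpi1 and Pkm stood at 946 ± 117, 745 ± 73.3, 608 ± 85.8 and 560.1 ± 57.6 CPM per kilobase. Ldha exceeded Ldhb by 7.93-fold per kilobase, the isoform pair of lactate dehydrogenase. The hexokinase gene Hk2 exceeded Hk1 by 3.09-fold, and Hk3 had 12 counts in all. Each of these orders held in 11 of 11 libraries (permutation test, adjusted p = 0.00106).

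Of the glucose transporter genes, Slc2a3 exceeded Slc2a1 by 2.998-fold per kilobase (permutation test, adjusted p = 0.00106). Slc2a3 ran from 436 to 1324 CPM, lowest in replicates 9, 6 and 5. The lactate exporter gene Slc16a3 exceeded Slc16a1 in 10 of 11 libraries, by 1.12 ± 0.47 on the log2 scale (permutation test, adjusted p = 0.00203).

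The genes of the TCA cycle and fatty acid oxidation were lower and steadier. All 20 were detected, with a median of 30.2 CPM per kilobase against 55.5 for glycolysis. Their summed level lay between 2765 and 3020.4 CPM. Idh2, the mitochondrial enzyme gene, exceeded Idh1 by 4.22-fold per kilobase (permutation test, adjusted p = 0.00106). In lipid synthesis, with 20 of 20 genes detected, the desaturase gene Scd2 stood at 1572 ± 109 CPM and exceeded Scd1 by 15.7-fold. In serine and folate metabolism the mitochondrial enzyme genes Shmt2 and Mthfd2 exceeded the cytosolic Shmt1 and Mthfd1 by 4.41-fold and 2.62-fold (permutation test, adjusted p = 0.00106 for both). Odc1, the rate-limiting enzyme of polyamine synthesis, stood at 609 ± 39.1 CPM, while Arg1 had 4 counts and Arg2 24.

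Transcripts of cell division were abundant at this harvest. Top2a, the topoisomerase of replication and mitosis, ran from 968 to 1250.4 CPM with a median of 1086. The replication genes Pcna and Mcm6 stood at 287 ± 43.9 and 484 ± 68.4 CPM. Of the D-type cyclins Ccnd2 exceeded Ccnd3 by 2.23-fold per kilobase (permutation test, adjusted p = 0.00106), and Ccnd1 had 11 counts. Cdk4 exceeded Cdk6 by 2.81-fold. The inhibitor gene Cdkn1b exceeded Cdkn1a by 0.72 ± 0.45 on the log2 scale with merged exons, but the difference was -0.054, with an adjusted p of 0.715 in the permutation test, with the longest transcript. Mcm5, a subunit of the replicative helicase, ran from 213 to 235 CPM in replicates 1 to 4 and from 356 to 382 CPM in replicates 5, 6 and 9.

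All 16 survival and death genes were detected. Mcl1, an anti-apoptotic gene, exceeded its relative Bcl2 by 6.399-fold per kilobase, and Bcl2 exceeded Bcl2l1 by 2.24-fold (permutation test, adjusted p = 0.00106 for both). The pore-forming effector Bax stood at 103 ± 15.8 CPM.

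Vdr, which encodes the vitamin D receptor, was detected in these cells without added hormone. It ran from 7.29 to 28.2 CPM with a median of 15.4. Its partner genes Rxra and Rxrb stood at 13.95 ± 3.02 and 17.5 ± 1.54 CPM per kilobase, against 2.91 ± 1.02 for Vdr. Rxrb exceeded Rxra in 8 of 11 libraries (log2 ratio of Rxra to Rxrb -0.35 ± 0.36, permutation test, adjusted p = 0.0130). Without replicates 1 to 4 that ratio was -0.17, with an adjusted p of 0.191 in the permutation test. The enzyme genes that make the hormone, Cyp2r1, Cyp27a1 and Cyp27b1, had 12, 26 and 18 counts. Cyp24a1, which degrades it, had none, and neither had the uptake receptor Lrp2 nor the carrier Gc.

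Among genes used to mark other cell types, some were at or near 0 and others were detected. Of 14 lists of other cells, NK cells, macrophages and monocytes, neutrophils, mast cells and basophils, eosinophils, erythroid cells and fibroblasts had no detected member. Cd8a had 6 counts against 73485 for Cd4, although Cd8b1 stood at 6.104 ± 1.13 CPM. For gamma delta T cells Trdc had a mean of 1.39 CPM and Sox13 one of 0.103 CPM. For B cells Ighm, Ebf1 and Cd79b stood at 5.31 ± 1.87, 4.64 ± 2.13 and 2.26 ± 0.789 CPM, while Ms4a1, Pax5 and Cd79a stayed under 1 CPM. For dendritic cells Zbtb46 and Itgax stood at 4.77 ± 0.8497 and 3.45 ± 1.401 CPM, with Clec9a and Siglech at 0. Epcam and Krt18 stood at 9.95 ± 3.34 and 10.3 ± 1.97 CPM while Krt8 and Cdh1 had 1 count each and Krt5 none. Pecam1, found on leukocytes as well as endothelium, stood at 39.2 ± 7.96 CPM, with Cdh5 at 0. Itga2b stood at 4.73 ± 1.25 CPM with Ppbp at 0. The part that other cells had in any level above was not tested. The kit removes globin transcripts, so the 0 counts of Hba-a1, Hba-a2 and Hbb-bt tell nothing of red cells. Xist, made from the inactive X chromosome, ran from 213 to 312 CPM over the 11 libraries, while the Y-linked genes Ddx3y and Kdm5d had 1 count each and Eif2s3y and Uty none.

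The spread between libraries was measured as the coefficient of variation beyond counting error, for 8746 genes of at least 10 CPM. Its median was 9.51%, with 2.72% at the 5th percentile and 24.6% at the 95th. A gene was called wide where this value was at least 2 times the running median of genes of like mean level. By that rule 860 genes were wide, or 9.83%, and 27 genes exceeded 50%. Il4 (8.79%) and Gata3 (10.8%) were close to their neighbours in level. Il5 (49.3%), Il13 (30.5%), Il24 (25.999%), Il10 (25.97%), Il9 (21.3%) and Ctla4 (18.3%) were wide.

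**Figure D4:**
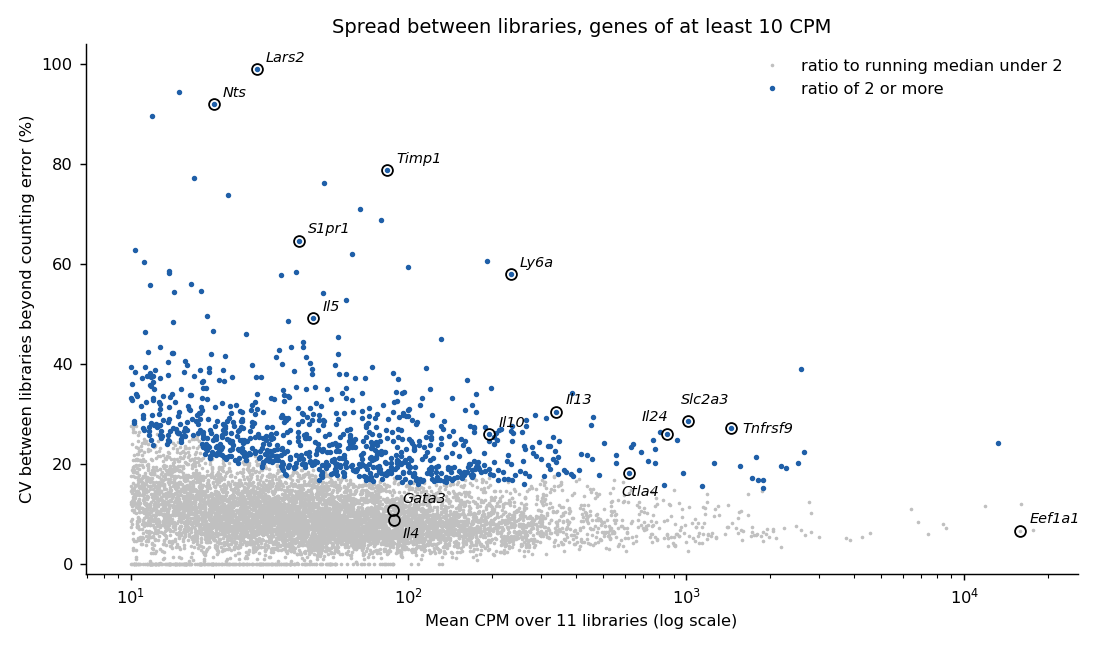
Coefficient of variation between 11 libraries beyond counting error (percent) against mean CPM (log axis) for 8746 genes; blue points, the 860 genes at 2 or more times the running median; circles, named genes. Il5 at 49.3% and Il4 at 8.79% have mean levels of 45.5 and 88.7 CPM.

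By list, the share of wide genes differed. Of the type 2 cytokine genes measured for spread, 5 of 7 were wide, and of the receptors for chemokines and lipid mediators 8 of 14, against the 9.83% of all genes. Of the costimulatory, inhibitory and adhesion receptors 12 of 36 were wide, and of the cell cycle genes 9 of 32. Of the T cell receptor genes 1 of 26 was wide, and none of the 20 TCA cycle or the 16 survival genes. These counts describe lists whose genes can share a source of spread, and they were not tested.

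Timp1, a metalloproteinase inhibitor, was the widest of all genes for its level at 78.7%. It stood at 203 and 200.7 CPM in replicates 1 and 2 and at 105 and 122 in replicates 3 and 4. In the other 7 it lay between 24.2 and 61.1 CPM. These sets of libraries were formed after the data were seen, so the gaps between them are a description and were not tested. Grp, Spx, Pth and Nts, which encode secreted peptides, were also among the 15 widest. Grp, the gene of gastrin-releasing peptide, ran from 35.5 to 166 CPM, Spx, of spexin, from 22.9 to 128 and Pth, of parathyroid hormone, from 8.62 to 57.2, each highest in replicates 1 and 2. Nts, of neurotensin, ran the other way, from 5.34 CPM in replicate 2 to 69.9 in replicate 11.

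Cdh17, a cadherin, Enpp2, which makes lysophosphatidic acid, and Ifitm1, an interferon-induced membrane protein gene, were also highest in replicates 1 and 2. Slc17a6, a vesicular glutamate transporter gene, ran from 297 to 361 CPM in replicates 1 to 4 and from 94.7 to 117 CPM in the other 7. Ly6a, the gene of the surface protein Sca-1, stood at 474 and 514 CPM in replicates 3 and 4 and at no more than 239 elsewhere. Without replicates 1 to 4 the mean was 41.6 CPM for Timp1, 5.04 for Ifitm1, 109.8 for Slc17a6 and 22.2 for S1pr1, from 83.6, 11.9, 192 and 40.5 CPM. It was 44.1 CPM for Grp, 28.1 for Spx, 11.8 for Pth, 47.98 for Cdh17 and 38.2 for Enpp2, from 66.7, 49.6, 22.4, 80.01 and 62.6 CPM.

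Lars2, a mitochondrial leucyl-tRNA synthetase gene, the miRNA gene Mir6236 and the ribosomal RNA gene n-R5-8s1 were all highest in replicate 8, at 92.1, 227 and 53.8 CPM. Their lowest values were 8.78, 27.02 and 1.38 CPM, all in replicate 2. Mitochondrial ribosomal RNA ranged from 1.09% of counts in replicate 6 to 2.41% in replicate 8. Replicate 6 was second highest for Lars2 and Mir6236, at 72.5 and 171.5 CPM, while n-R5-8s1 stood at 4.91 CPM there. Whether leftover ribosomal RNA bears on these 3 genes was not tested.

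**Figure D5:**
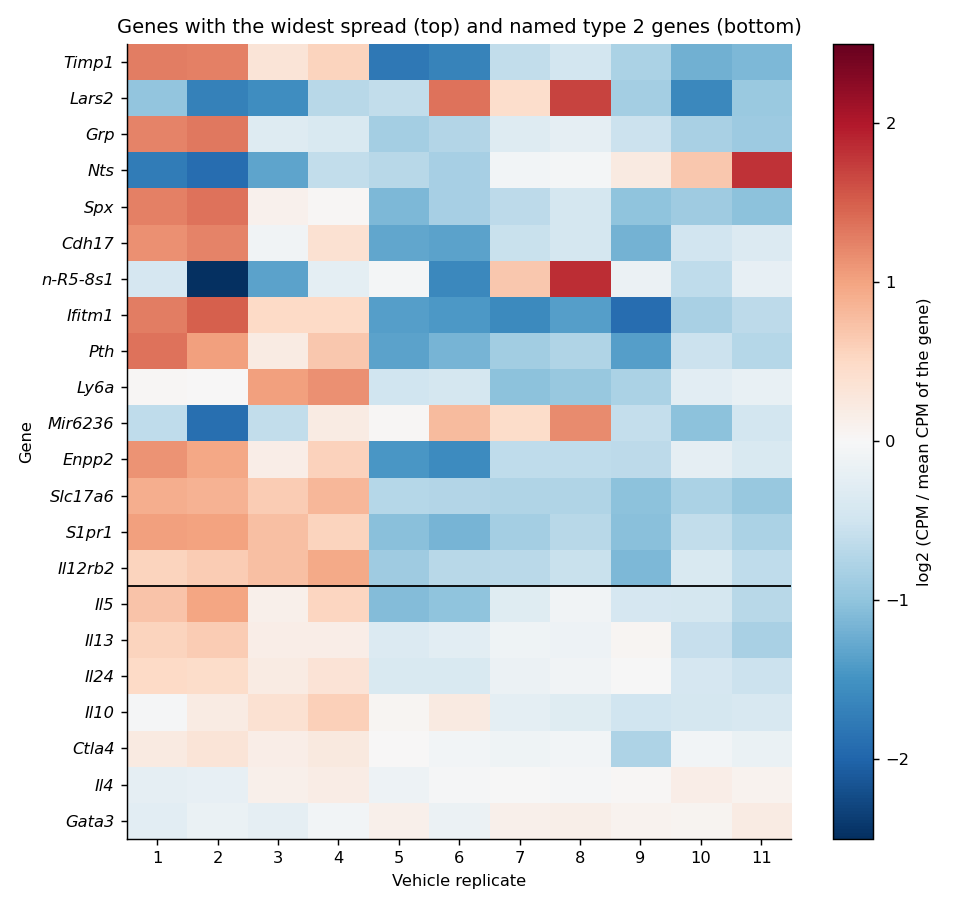
Log2 of CPM over the gene's mean CPM (colour) in each vehicle replicate for the 15 genes of widest spread (above the line) and 7 type 2 genes (below). Timp1, Grp, Spx, Cdh17, Ifitm1 and Pth are highest in replicates 1 and 2, Nts is highest in replicate 11, and Il4 and Gata3 vary least of the rows shown.

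For several sets of libraries, the same 2 were the highest for a larger share of the wide genes than of all genes, though not for each set. The 2 highest libraries were replicates 6 and 9 for 130 wide genes (15.1%, against 6.93% of all 8746 genes), replicates 1 and 2 for 120 (13.95%, against 5.32%) and replicates 3 and 4 for 120 (13.95%, against 5.71%). For replicates 5 and 9 the shares were 7.33 and 4.72%, for 10 and 11 they were 5.81 and 3.90%, and for 7 and 8 they were 4.88 and 3.17%. Replicates 5 and 6, the libraries with the smallest chi-square between them, were the 2 highest for 3.84% of wide genes and 3.88% of all genes. Replicate 9 was the highest library for 203 of the 860 wide genes and the lowest for 214. The same counts were not made over all 8746 genes, so they are no trait of the wide genes. When replicates 1 to 4 were left out, 1004 genes were wide, of which 530 were among the 860. At the other end, the spread of 245 genes did not exceed counting error. They included the vesicle tethering gene Cog7, the polycomb partner Phf19, the metalloproteinase gene Adam9 and the centriole gene Odf2, which ran from 126 to 137 CPM.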

How the data were processed

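Libraries of total RNA from vehicle-treated mouse TH2 cells kept the strand and were depleted of globin transcripts by the kit, per the labels' protocols. The values are raw counts per Ensembl gene, deposited by the authors as 1 table, and all its columns matched samples by name. STAR 2.7.10a, HTSeq 0.13.5 and build GRCm38 are named, per the submitters' processing notes. What each did, its annotation and its strand option were not given in the sources used here, so overlapping, antisense and near-identical genes are uncertain.

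Symbols, types, coordinates and merged exon lengths came from GENCODE release M21 (GRCm38). Of 49671 genes, 259 had no entry there and held at most 0.0556% of the counts of a library. Counts of 11 vehicle libraries were scaled with TMM (edgeR 4.0.16, R 4.3.3) to CPM. Fold and log2 ratios between 50 gene pairs used CPM per kilobase with a pseudocount of 0.5 counts and a two-sided sign-flip permutation test over libraries (2048 flips, smallest p 0.000976562), adjusted by Benjamini-Hochberg at a threshold of 0.05. The libraries resembled each other in sets, so these p-values may be too small. Spread was the coefficient of variation after subtraction of Poisson counting error, for genes of at least 10 CPM, and its ratio was taken to the median of the genes nearest in mean CPM, 100 on each side. The tests and the spread measure were tested on simulated data with independent libraries. That cannot show how they behave with libraries that resemble each other in sets. Promoter windows came from RefSeq (GRCm38.p6), matched by symbol, with 24131 of 32851 entries matched.

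Named genes were Gata3, Il4, Il13, Il5 and Ctla4; the 20 highest in CPM and the 20 highest protein-coding genes per kilobase; up to 8 highest members and those with no count in each of 32 lists (487 genes, 3 of them not in the annotation; each member of 14 lists of other cells); the genes of 50 pairs; the 15 widest and 10 narrowest in spread; and the 10 largest loadings at each end of components 1 and 2. Areg, Arg1, Arg2, Ccnd1, Crlf2, Eomes, Foxp3, Hk3, Ifng, Il17a, Il17f, Il2, Il22, Il31, Il7r, Klrg1, Pdcd1, Pparg, Ptgdr2 and Zap70 and the T cell receptor segments were chosen after their values were seen. A few genes that the rule names are not reported here. The members, lists and pairs were chosen with earlier results of these data known. Alternatives were other scalings, thresholds, lengths and pseudocounts, thinning to the shallowest library, edgeR's tagwise dispersion and leaving out libraries. Leaving out replicates 1 to 4 together was chosen after seeing the data.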

Additional observations from a re-analysis of the deposited data

How the results depend on the processing

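Leaving out each library in turn gave 12446 to 12482 detected genes (12484 with all 11 libraries) and 835 to 917 wide genes (860 with all). It gave a median spread of 8.94 to 9.77% and 49 of 50 pairs passing in each case. Of 432 tabulated genes of at least 1 CPM, none moved in mean CPM by over 1.5 times without 1 library or with other scalings. Without replicates 1 and 2, 3 did (Ifitm1, Il22 and Il3). Without replicates 1 to 4, 15 did, all of them lower, to between 0.423 and 0.661 times the mean of all 11 libraries: Ahr, Cdh17, Enpp2, Ermn, Grp, Ifitm1, Il12rb2, Il22, Il3, Pth, Ramp3, S1pr1, Slc17a6, Spx and Timp1. Without replicates 1 and 2, 877 genes were wide, 712 of them among the 860. Without replicates 1 to 4, 48 pairs passed.

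Without mitochondrial genes the share of the 10 most abundant genes was 10.4%, that of the 100 most abundant 25.6% and that of protein-coding genes 91.2%, by construction. The length of the longest transcript reversed 3 pairs, with log2 ratios of -0.014 for Il10/Il4, 0.31 for Stat5a/Stat5b and -0.054 for Cdkn1b/Cdkn1a, and it raised 120 of 522 levels per kilobase by over 1.5 times, by up to 3.19 times, since the longest transcript is shorter than the merged exons. Depth limits the low genes: with libraries thinned to the shallowest, the number of genes with no count was 26736, against 24635. No paired analysis was possible because the labels give no replicate numbers and 1 group is described.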
